A study of Homo sapiens with 4 samples.

Results

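The genes described here encode enzymes and membrane proteins of the lysosome, in EJM cells, an established human multiple myeloma line (a cancer of antibody-secreting plasma cells). They were chosen by gene symbol from a list of 50 lysosomal genes and by the presence of a value on at least 3 of the 4 arrays, and 22 of the 50 met this rule, among 4212 named genes measured in all. The size of a ratio did not enter the rule, but the list was put together with results of these arrays known, so the values below describe the members, and neither they nor the fits give independent support. The cells carried a doxycycline-inducible IκBα super-repressor under control of the tetracycline repressor. A super-repressor is a form of the NF-κB inhibitor that resists signal-induced breakdown. The uninduced cells carried the same construct. Induction was with doxycycline (20 µg/ml, 37 °C) and lasted 1, 2, 3 or 4 days. RNA of the induced cells was labelled with Cy5, on 1 dual-channel cDNA array per day, and RNA of the uninduced cells with Cy3 on every array. Only the induced cells received doxycycline, so an effect of the drug itself and an effect of the super-repressor cannot be told apart. The labels do not say whether the line was 1 clone or whether each array had its own control RNA.

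The lysosome is the acidic compartment in which cells break down proteins, lipids and sugar chains. Its soluble hydrolases are made in the endoplasmic reticulum, mostly tagged with mannose 6-phosphate in the Golgi and released in a compartment kept acidic by the vacuolar proton pump, while highly glycosylated proteins such as LAMP1 line the membrane. Many of these genes share a promoter element, a form of E-box, that the transcription factor TFEB and its relatives bind. In B-lineage cells, lysosomal proteases also cut the invariant chain and antigens for presentation on MHC class II.

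Values are log2 ratios of induced over uninduced cells, so 1 is a 2-fold higher signal in induced cells and 0 is no difference. The direction was taken from the dyes in the labels, and the base of the log is not stated and was taken as 2. No level of a gene can be compared with that of another, because only ratios were deposited. In RNA from whole cultures, fewer cells that express a gene and less RNA per cell cannot be told apart. For each gene the mean over the 4 arrays was set against 0 with limma, fitted over 7713 features (4212 named genes and 3501 unnamed probes) with a Benjamini-Hochberg adjusted p threshold of 0.05. Each array is a different day, so the SD given here is a spread over days. The labels name no separate cultures, and the p-values then measure only the spread between these arrays, which may be technical.

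The arrays differed in width. Values were present for 10321 to 13872 of 15246 probes, and the SD of the log2 ratio over probes was 0.517, 0.569, 0.345 and 0.38 on days 1 to 4. Over the 6427 features with all 4 values, the arrays correlated with each other at r from 0.034 (days 1 and 4) to 0.602 (days 3 and 4). TNFAIP3 (A20), a known NF-κB target, had a mean of -1.47 ± 0.28 (SD, 4 arrays; limma adjusted p = 0.0178), and IL2RG passed as well (-1.05 ± 0.18, adjusted p = 0.0317). All 7 measured genes of an NF-κB reference list had means below 0, where 4323 of all 7713 features did. The least so were TNFRSF1B (-0.54 ± 0.11) and NFKBIE (-0.27 ± 0.53). That list was also put together with results of these arrays known, so it is no independent check of the super-repressor. Plasma cell markers, the labelled cell type, were present on the array, but ratios cannot show whether the cells expressed them.

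All 50 listed genes were accounted for. A probe under the current or an older symbol was found for 23, through 44 probes in all, and 27 had no probe under their symbol in the annotation used and were not analysed here. Of 11 listed proteases and their helpers 8 were measured, of 20 glycosidases, lipases and sulfatases with their activators 10, of 8 membrane and lumenal transport proteins 3, and of 11 proton pump genes 1. CTSD, GAA, PSAP, NPC1 and MCOLN1 were among those not analysed. Just inside the rule was SCARB2, with values on 3 arrays, and just outside was LAMP2, with values on 2 arrays (-0.33 on day 3 and -0.2 on day 4). Of the 22 measured genes 11 rested on 1 probe each.

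Because many lysosomal genes are known for a shared E-box, promoter windows of the listed genes were searched for its core. The core CACGTG reads the same on both strands. Windows came from RefSeq (GRCh38.p14, 250 bases before to 50 after each transcript start). At least 1 window was held for 36 of the 50 listed genes and 16 of the 22 measured ones. The core was found in 13 of 51 windows of listed genes (25.5%), against 7.26% of 35116 windows of all genes and 9.02% of 5301 windows of the named genes tested. The longer form TCACGTGA, which contains the core, was found in 7 of the 51 windows (13.7%). It was in 0.98% of all windows and 1.72% of those of the named genes tested. The form GTCACGTG, on either strand and overlapping both, was found in 10 (19.6%), against 2.4% and 3.96%. Of the 27 windows of measured genes, 6 held the core (22.2%), 2 held TCACGTGA (7.41%) and 4 held GTCACGTG (14.8%). A match is a description of the sequence and not a binding site. Of the 16 measured genes with a window, 6 held the core upstream of the start: CTSA, LAMP1, CD63, ATP6V0B, ARSB and IFI30. Among these, only ARSB, ATP6V0B, CTSA and LAMP1 held GTCACGTG, and only CTSA and LAMP1 held TCACGTGA. The stretches with the core are shown 5′ to 3′ on the gene's strand, with each core in capitals.
CTSA, chr20:45891283-45891325, plus strand: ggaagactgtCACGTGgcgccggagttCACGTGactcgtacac
LAMP1, chr13:113297037-113297226, plus strand: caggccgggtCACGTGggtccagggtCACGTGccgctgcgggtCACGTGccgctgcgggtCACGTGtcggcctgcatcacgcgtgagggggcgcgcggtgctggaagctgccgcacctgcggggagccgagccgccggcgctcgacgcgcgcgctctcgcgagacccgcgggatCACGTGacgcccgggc
CD63, chr12:55729174-55729199, minus strand: gggtaggggcCACGTGgccctggccg
ATP6V0B, chr1:43974893-43974936, plus strand: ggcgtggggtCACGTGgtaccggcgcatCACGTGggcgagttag
ARSB, chr5:78986103-78986128, minus strand: attcaataagCACGTGactaaaggat
IFI30, chr19:18173587-18173612, plus strand: cgccagggctCACGTGcctgggcagg
LAMP1 had 5 cores in this stretch and a further core across its start, beginning at base -1. CTSA had 2, at -42 and -25, and ATP6V0B had 2, at -57 and -39.

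**Figure D1:**
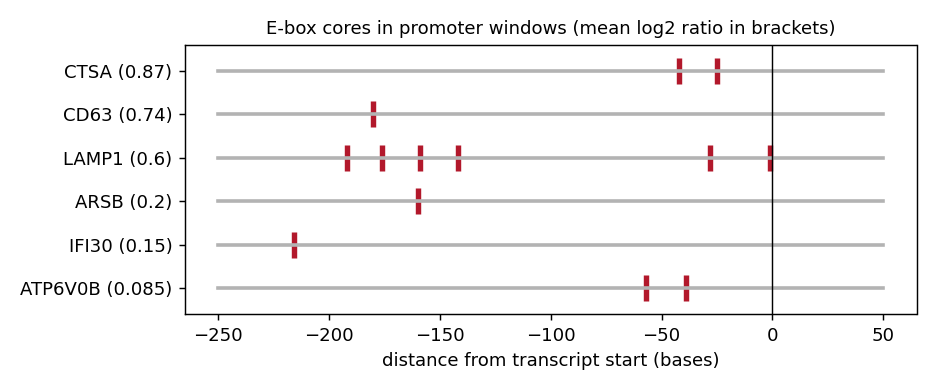
Positions of the core CACGTG (red ticks) in the promoter windows (grey bars, 250 bases before to 50 after the transcript start at 0) of the 6 measured genes that held it, ordered by mean log2 ratio, which stands in brackets. Where a gene has several windows, the window with the core is drawn; LAMP1 has 6 cores and the others 1 or 2.

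Among the proteases, cathepsin A, cathepsin B, legumain, cathepsin L and cathepsin C had ratios above 0 on every day, whereas cathepsin S, TPP1 and IFI30 lay on both sides of 0. CTSA, a serine carboxypeptidase that also protects β-galactosidase and neuraminidase in a complex, read 0.86, 0.8, 0.9 and 0.92 on days 1 to 4. It differed little between the days. Its mean was 0.87 ± 0.056 (SD, 4 arrays), a 1.83-fold higher signal in induced cells (limma adjusted p = 0.0338). It ranked 9 among the means of the 4212 named genes. If the log were natural, the fold would be 2.39. CTSA was the only one of the 22 genes that passed, while 26 of all 7713 features passed (0.337%) and 12 of these were higher (0.156%). This mean rests on a single probe. Without a dye swap, a dye bias of that probe and an effect of induction cannot be told apart. CTSA did not pass without the array of day 1, 2, 3 or 4 (limma adjusted p = 0.12, 0.113, 0.316 or 0.279). The means were then between 0.85 and 0.9. With days 3 and 4 alone CTSA passed (mean 0.91, limma adjusted p = 0.00281).

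CTSB, cathepsin B, a cysteine protease with endopeptidase and dipeptidase activity, had the most probes of any member. It read 0.79, 0.69, 0.83 and 0.73 on days 1 to 4. These values averaged 8 probes, and all 32 single values of these probes lay above 0, from 0.42 to 1.3. The mean of single probes ran from 0.49 to 1.03. The mean over probes and days was 0.76 ± 0.063, a 1.69-fold higher signal, and did not pass (limma adjusted p = 0.0537). With only features that had values on all 4 arrays entering the fit, the same mean had an adjusted p of 0.0346. With 1 probe per gene, that with the fewest missing values, the CTSB mean was 0.49 (limma adjusted p = 0.173). Over all 13 alternatives the limma adjusted p of CTSB ran from 0.00457 to 0.393.

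LGMN, legumain, an asparagine-specific protease that matures several cathepsins, read 0.37, 0.57, 0.39 and 0.76. Its mean was 0.52 ± 0.18 (limma adjusted p = 0.185). CTSC, cathepsin C, which activates the serine proteases of granules, read 0.59, 0.29, 0.23 and 0.25, so day 1 was the highest. Its mean was 0.34 ± 0.17 (limma adjusted p = 0.329). Neither mean passed.

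CTSL, cathepsin L, a cysteine endopeptidase, read 0.17, 1.09, 0.29 and 0.24, with day 2 far above the others. Its 3 probes disagreed in size. The first read 2.02 on day 2 but -0.27, -0.17 and 0.33 on days 1, 3 and 4. The second read 1.03, 1.29, 0.72 and 0.27, and the third lay between -0.25 and 0.31. The mean was 0.45 ± 0.43 (limma adjusted p = 0.369), and without the day 2 array it was 0.23. Probes of related cathepsins can cross-hybridise.

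The other 3 measured genes of this class, CTSS, IFI30 and TPP1, lay on both sides of 0. CTSS, cathepsin S, which removes the last part of the invariant chain in B cells, read 0.22, -0.35, -0.24 and 0.051, with a mean of -0.081 ± 0.26. IFI30 (GILT), the thiol reductase that unfolds antigens, read 0.48, 0.37, -0.15 and -0.084. Its second probe had values only on days 3 and 4 (-0.34 and -0.33), while the probe with all 4 values read 0.48, 0.37, 0.029 and 0.17, so the change of sign coincided with the entry of that probe. TPP1, a tripeptidyl peptidase whose loss causes a form of neuronal ceroid lipofuscinosis, read 0.13, 0.23, -0.27 and -0.12. None of these 3 means passed (limma adjusted p = 0.823, 0.684 and 0.983). Of 10 measured genes of the MHC class II pathway 8 had a mean below 0. Their median mean was -0.4, and none passed in the limma fit. An unadjusted p under 0.05 was found for 6, all lower, where 463 of all 7713 features were lower at that p. Their largest mean was that of HLA-DRA (-1.09 ± 0.52), and the invariant chain CD74 had -0.62 ± 0.34. The other end of that list was HLA-DOB (0.27 ± 1.06) and HLA-DMB (0.033 ± 0.25).

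**Figure D2:**
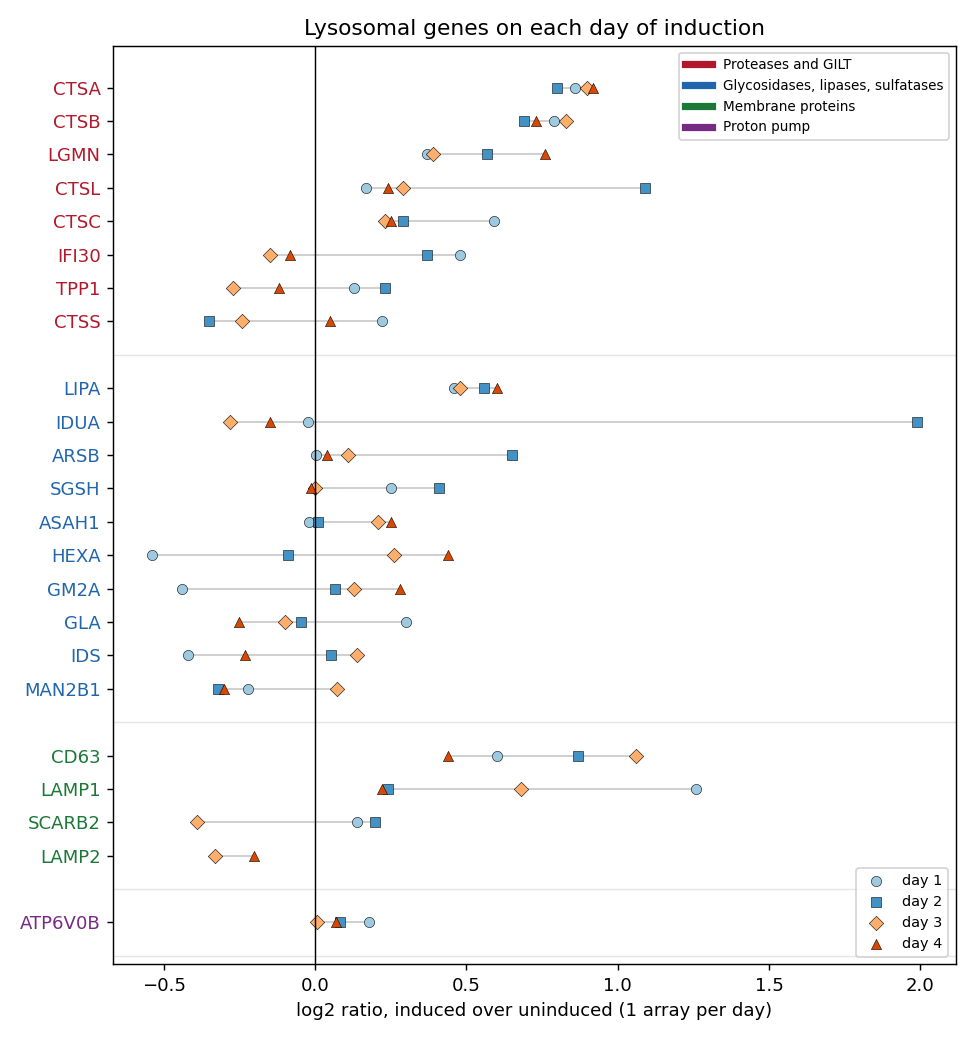
Log2 ratio of induced over uninduced cells (horizontal axis) for the 22 measured lysosomal genes and LAMP2, 1 point per array, with shape and colour for the day and label colour for the class. The 4 points of CTSA (0.8 to 0.92), CTSB (0.69 to 0.83) and LIPA (0.46 to 0.6) lie close together above 0, while IDUA reaches 1.99 on day 2 only.

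Among the enzymes that act on lipids and sugar chains, only LIPA stood well above 0 on all days. LIPA, the acid lipase that splits cholesteryl esters and triglycerides, read 0.46, 0.56, 0.48 and 0.6. Both of its probes lay above 0 on every array, between 0.23 and 0.79. Its mean was 0.53 ± 0.066, a 1.44-fold higher signal, and did not pass (limma adjusted p = 0.137).

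HEXA and GM2A, whose products act together on ganglioside GM2, had means near 0 and a similar order of days. HEXA, the α chain of hexosaminidase, read -0.54, -0.09, 0.26 and 0.44 on days 1 to 4. GM2A, the activator protein that presents the ganglioside to that enzyme, read -0.44, 0.067, 0.13 and 0.28. Each gene was lowest on day 1 and highest on day 4, and each rests on 1 probe. The slopes were 0.33 ± 0.084 log2 per day (SE, 4 arrays) for HEXA and 0.23 ± 0.089 for GM2A, and neither passed (limma adjusted p = 0.304 and 0.331). ASAH1, acid ceramidase, read -0.018, 0.011, 0.21 and 0.25, with a slope of 0.1 ± 0.081.

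The enzymes that degrade glycosaminoglycans scattered around 0. IDUA, α-iduronidase, read -0.023, 1.99, -0.28 and -0.15. Its day 2 value averages a probe at 4.11 with another at -0.14. The first probe had no value on days 1 and 4, and the second alone had a mean of -0.2. The IDUA mean of 0.38 ± 1.07 therefore takes its sign from 1 value of 1 probe, and was -0.15 without the day 2 array. ARSB, arylsulfatase B, read 0.004, 0.65, 0.11 and 0.041, and on day 2 only 1 of its 2 probes had a value. On the other days the 2 ARSB probes lay on opposite sides of 0. SGSH, N-sulfoglucosamine sulfohydrolase, read 0.25, 0.41, 0.0 and -0.013, with a mean of 0.16 ± 0.2. IDS, iduronate 2-sulfatase, read -0.42, 0.052, 0.14 and -0.23, and its 2 probes had means of opposite sign (-0.58 and 0.19).

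GLA, α-galactosidase A, which is deficient in Fabry disease, read 0.3, -0.046, -0.1 and -0.25, highest on day 1 and lowest on day 4. Its slope was -0.17 ± 0.083 log2 per day (limma adjusted p = 0.378). MAN2B1, the lysosomal α-mannosidase, was the lowest mean of all members at -0.19 ± 0.18, with values of -0.22, -0.32, 0.074 and -0.3. None of the 10 means of this class passed (limma adjusted p from 0.137 for LIPA to 0.984 for GM2A).

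Of the membrane proteins, the major glycoproteins CD63 and LAMP1 lay above 0 on all days. CD63, a tetraspanin of late endosomes, lysosomes and exosomes, read 0.6, 0.87, 1.06 and 0.44. All 9 of its probe values lay above 0, between 0.29 and 1.13. Its mean was 0.74 ± 0.28, a 1.67-fold higher signal (limma adjusted p = 0.112). LAMP1, which with LAMP2 makes up most of the glycocalyx inside the lysosomal membrane, read 1.26, 0.24, 0.68 and 0.22 on a single probe. Its mean was 0.6 ± 0.49 (limma adjusted p = 0.296), and day 1 was the highest. The 2 probes of LAMP2 read between -0.41 and -0.069 on days 3 and 4, the only days with values, so the LAMP genes lay on opposite sides of 0 there. SCARB2 (LIMP-2), the receptor that carries β-glucocerebrosidase to the lysosome, read 0.14, 0.2 and -0.39 on days 1 to 3. None of these means passed.

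The single measured subunit of the proton pump, ATP6V0B of the membrane sector, read 0.18, 0.084, 0.008 and 0.069, with a mean of 0.085 ± 0.071 (limma adjusted p = 0.767). Its 2 probes had means of opposite sign, 0.38 and -0.21. The pump as a whole is therefore hardly covered by the members. Among other pump genes 3 were measured, all with means above 0 and none past the threshold: TCIRG1, the a3 subunit, at 0.32 ± 0.11, ATP6AP1L at 0.1 ± 0.29 and DMXL1 at 0.00087 ± 0.27.

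**Figure D3:**
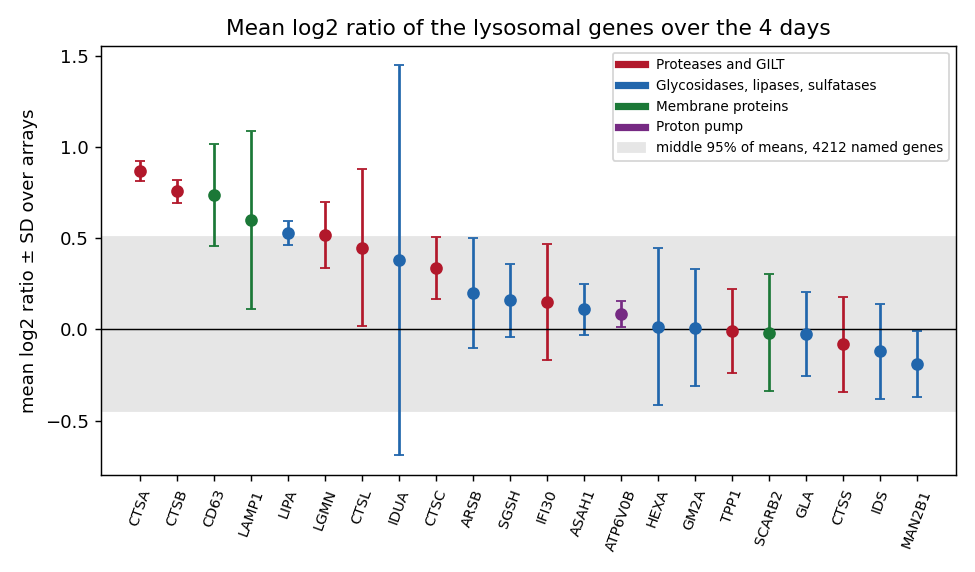
Mean log2 ratio (points) with the SD over arrays (bars) of the 22 measured genes, ordered by mean and coloured by class. The grey band spans the middle 95% of the means of the 4212 named genes, from -0.45 to 0.51, and the points of CTSA, CTSB, CD63, LAMP1, LIPA and LGMN lie above it.

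**Figure D4:**
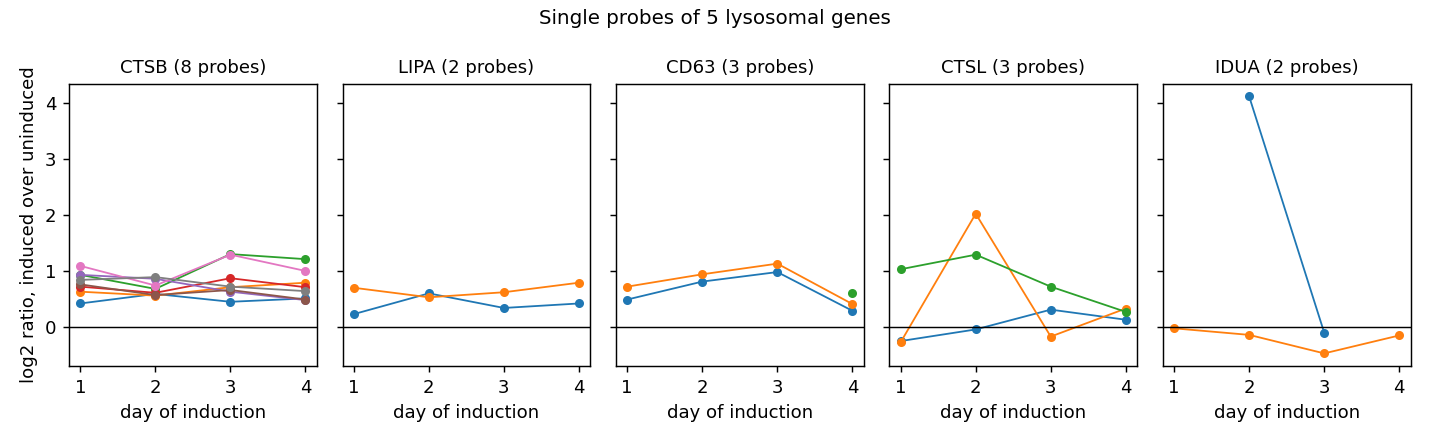
Log2 ratio of each single probe (1 line per probe) on days 1 to 4 for 5 genes. The 8 CTSB probes and both LIPA probes stay above 0, whereas 1 probe (4.11) carries the day 2 value of IDUA. The CTSL probes read 2.02, 1.29 and -0.043 on day 2.

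Of the 22 genes 16 had a mean above 0 (72.7%), against 44% of all features, and their median was 0.16, against -0.032. An unadjusted p under 0.05 was found for 8 of them, all higher (CTSA, CTSB, CD63, LIPA, LGMN, LAMP1, CTSC and CTSL), where 6.47% of all features were higher at that p. Of 21 genes with all 4 values, 10 lay above 0 on every array, where 11.7% of features did, and 0 lay below 0 on every array, where 13.4% did. Of these 10, ARSB was at 0.004 on day 1. Single probe values above 0 were only 4 of 7 for ARSB, 4 of 8 for ATP6V0B and 8 of 12 for CTSL. The rest of the 10 had every probe value above 0. Since the genes were chosen with results known, these shares are given for scale and no test was made of them.

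The classes differed in where their values lay on each day. The protease median was 0.43, 0.47, 0.26 and 0.25 on days 1 to 4, with 8, 7, 5 and 6 of 8 genes above 0. The median of the 10 glycosidases, lipases and sulfatases was -0.02, 0.059, 0.12 and 0.014, with 4, 7, 7 and 5 above 0. Over all features the day medians were -0.062, -0.081, 0.017 and 0.011. The protease median therefore lay above the array median on each day, while the median of the other hydrolases lay close to it. Membrane proteins and the pump gene, 4 in all, had medians of 0.39, 0.22, 0.34 and 0.22. The median of means was 0.39 for the proteases, 0.065 for the glycosidases, lipases and sulfatases, and 0.34 for membrane proteins and pump. Without LIPA that of the second class was 0.015. The difference between classes was not tested, because the genes of a class are not replicates.

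By size on single arrays, 1 of 22 genes was at least 2-fold higher on day 1 (LAMP1), where 1.51% of features were, 2 on day 2 (CTSL and IDUA, background 2.21%), 1 on day 3 (CD63, background 0.458%) and 0 of 21 on day 4 (background 0.797%). At least 1.5-fold higher were 5 genes on day 1, where 7.53% of features were, and 6 on day 2, where 6.78% were. On days 3 and 4 there were 4 each, where 3.58% and 4.09% of features were. CTSA and CTSB were among them on all 4 days. On day 4 the other 2 were LGMN and LIPA. No member was 1.5-fold lower on any day, where 10.6%, 12.6%, 1.69% and 2.39% of features were on days 1 to 4. Each day has 1 array, so these counts have no replicate check.

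In the limma fit of the log2 ratio on day, 0 of 21 genes passed, as did 0 of the 6427 features (0.0%). An unadjusted p under 0.05 was found for 2 of the 21, HEXA and GM2A, where 15% of all features had such a p, so the share of members was below that of all features. The lowest slopes were those of LAMP1 (-0.27 ± 0.14), IDUA (-0.27 ± 0.34) and IFI30 (-0.22 ± 0.091). The probes averaged for IDUA and IFI30 changed between days. With only probes that have all 4 values, their slopes were -0.0716 and -0.13. Time in culture may differ between induced and control cells, and it cannot be told apart from the length of induction in these slopes. CTSA and CTSB, the most even members, had slopes of 0.029 ± 0.08 and -0.0046 ± 0.082.

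**Figure D5:**
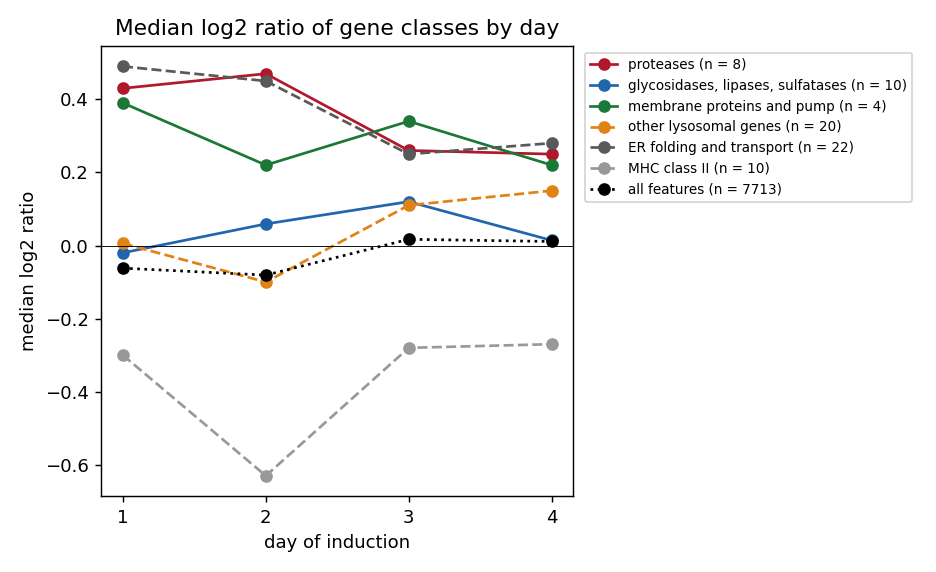
Median log2 ratio (vertical axis) by day of induction for the 3 member classes (solid lines), for other lysosomal genes, ER folding genes and MHC class II genes (dashed lines) and for all features (dotted line), with the number of genes in the legend. Proteases run from 0.47 to 0.25, glycosidases, lipases and sulfatases stay between -0.02 and 0.12, and other lysosomal genes between -0.1 and 0.15.

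Other genes of the lysosome, from lists that do not overlap the members, lay closer to 0. Of 88 listed hydrolases, membrane proteins and pump genes 20 were measured, 13 with a mean above 0 and a median of 0.018, and 0 passed in the limma fit (unadjusted p under 0.05 for 2 higher and 1 lower). At that p 6.47% of all features were higher and 463 of 7713 lower. Among 7 further hydrolases the lowest means were those of CTSK, the collagen-degrading cathepsin K (-0.4 ± 0.38, with -0.94 on day 1), and CTSW (-0.11 ± 0.31). The highest were RNASET2, an acid ribonuclease (0.15 ± 0.21), and ACP2, lysosomal acid phosphatase (0.044 ± 0.21, 3 arrays). Among 10 further membrane proteins CYB561A3, an ascorbate-dependent reductase, had the highest mean (0.45 ± 0.21), followed by the sialomucin CD164 (0.3 ± 0.25). LAPTM4A (-0.17 ± 0.32) and the chloride transporter CLCN7 (-0.14 ± 0.59) had the lowest. CD68, a LAMP-family glycoprotein abundant in macrophages, had a mean of 0.018 ± 0.1.

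The median of genes that deliver enzymes to the lysosome lay near that of all features, unlike that of the proteases. Of 54 listed sorting genes 17 were measured, 4 with a mean above 0 (23.5%), with a median of -0.067. Over all features 44% had a mean above 0, and the median was -0.032. IGF2R, the large mannose 6-phosphate receptor, had the highest mean (0.17 ± 0.16), followed by the SNARE STX8 (0.15 ± 0.046, 3 arrays), and HPS4 (-0.29 ± 0.39) and the adaptor subunit AP1S3 (-0.21 ± 0.09) the lowest. Of 24 regulators 8 were measured, with a median of -0.0015. The factor TFEB itself read 0.43 on day 1 and -0.009, -0.092 and -0.11 on days 2 to 4, with a mean of 0.056 ± 0.25. RRAGA and RRAGD, GTPases of the amino acid sensor on the lysosome, had means of 0.15 ± 0.29 and 0.15 ± 0.33. The mean of FNIP1 was the same as printed (0.15 ± 0.46, 3 arrays). RHEB, the activator of mTORC1, and MTOR had the lowest means, -0.3 ± 0.31 and -0.21 ± 0.19. Of 37 autophagy genes 10 were measured, 5 above 0, with a median of -0.0025, from ATG5 (-0.38 ± 0.53) and BNIP3L (-0.28 ± 0.18) to UVRAG (0.25 ± 0.3) and WIPI1 (0.39 ± 0.28). None of these 35 genes passed in the limma fit (unadjusted p under 0.05 for 1, WIPI1, higher, where 6.47% of all features were).

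Of 22 listed inhibitors of proteases 8 were measured, 6 with a mean above 0, with a median of 0.24, and 0 passed. An unadjusted p under 0.05 in the limma fit was found for 3, all higher, where 6.47% of all features were. The highest were the metalloproteinase inhibitors TIMP2 (0.47 ± 0.26) and TIMP1 (0.39 ± 0.12). Of the cystatins, which inhibit cysteine cathepsins, CSTB had a mean of 0.23 ± 0.2, and CST3 read 0.14 on day 1 and -0.74 and -0.78 on days 3 and 4, with no value on day 2 (-0.46 ± 0.52). After CST3, A2M was the lowest (-0.26 ± 0.36).

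Of the measured genes with a promoter window, the 6 that held the core CACGTG had means from 0.085 (ATP6V0B) to 0.87 (CTSA), with a median of 0.4. The 10 whose windows did not hold it had means from -0.19 (MAN2B1) to 0.53 (LIPA), with a median of 0.0. These ranges overlap, and the difference was not tested. Windows of 6 measured genes, CTSB and LGMN among them, were not used here.

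Genes of the endoplasmic reticulum, in which the hydrolases are made, and plasma cell markers also lay mostly above 0 on these arrays. Of 22 measured ER folding and transport genes 20 had a mean above 0, with a median of 0.33 and day medians of 0.49, 0.45, 0.25 and 0.28. None passed in the limma fit, with an unadjusted p under 0.05 for 12, all higher, where 6.47% of all features were higher at that p. Their highest means were those of SSR3 (0.83 ± 0.8, 3 arrays) and PDIA4 (0.82 ± 0.45), and the lowest those of PDIA3 (-0.1 ± 0.17) and SEC24C (-0.089 ± 0.22). Of 11 plasma cell markers 9 lay above 0, with day medians of 0.56, 0.7, 0.24 and 0.1, from MZB1 (-0.046 ± 0.12) and CD27 (-0.043 ± 0.35) to CD38 (0.69 ± 0.089) and JCHAIN (1.0 ± 0.5). Their part in the lysosomal values was not tested. Of 11 myeloid markers 4 lay above 0 (36.4%), where 44% of all features did. The median of the myeloid markers was -0.15, with day medians of -0.36, 0.006, -0.043 and 0.076. CD14 (0.37 ± 0.46) and ITGAM (0.21 ± 0.23) were the highest, and MARCO (-0.46 ± 0.4, 3 arrays) and AIF1 (-0.28 ± 0.3, 3 arrays) the lowest. The median for 11 B cell markers was -0.059, from CD79A (-0.13 ± 0.08, 3 arrays) and CD24 (-0.083 ± 0.28) to CD37 (0.16 ± 0.07) and CD79B (0.45 ± 0.22). For 14 T and NK cell markers it was -0.029, from PRF1 (-0.48 ± 0.33, 3 arrays) and CD5 (-0.42 ± 0.22) to CD3D (0.36 ± 0.42) and CD4 (0.36 ± 0.21). For 8 stromal and red cell markers it was 0.1, from CDH5 (-0.32 ± 0.18) and VWF (-0.23 ± 0.54, 3 arrays) to PECAM1 (0.52 ± 0.25) and HBB, which passed (0.85 ± 0.091, limma adjusted p = 0.0381).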

How the data were processed

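The authors deposited 1 log ratio of Cy5 and Cy3 per probe and array, used here as log2. Scanning, background correction, normalization and filtering by the authors are not stated, and neither the base nor the direction of the ratio is stated. Base 2, and induced (Cy5) over uninduced (Cy3) from the dyes in the labels, were taken. If the ratio ran the other way, every sign would turn. Dim spots could not be filtered, since only ratios were used.

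Symbols came from the platform annotation (10169 of 15246 probes with 1 symbol, 4 with several, 5073 with none), updated through the Entrez identifier with RefSeq (10128 matched). Probes of a gene were averaged per array, and a gene's probes can differ between arrays where values are missing. Means (at least 3 values, 7713 features) and slopes on day (4 values, 6427 features) were fitted with limma 3.58.1 in R 4.3.3 (lmFit, eBayes, two-sided) and Benjamini-Hochberg adjustment. The script was tested on simulated data. The number of arrays limits the precision. A test of the ratio against 0 leaves out the spread of a shared control, and without a dye swap a dye bias of a gene stays in its mean.

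Members and lists were chosen with earlier results of these data known. The lists were other lysosomal genes, sorting, regulators, autophagy, protease inhibitors, ER folding, MHC class II, NF-κB reference genes and cell type markers. All measured members were described. Of each other list the rule named the 2 highest and 2 lowest means and every gene past the threshold. CD68, TFEB and CSTB fall outside it and were named for their roles after their values were seen. FNIP1, RRAGA and RRAGD had the same printed mean, so all of them were named.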

Additional observations from a re-analysis of the deposited data

Results flagged for a closer look

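In 4 of 21 members with all 4 values, 1 array stood apart from the other 3, by a gap to the nearest value above Dixon's 95% critical value for 4 values, which chance passes in about 1 of 20 groups. The 4 arrays are different days, so such a gap can be a day's own value. CTSC was 0.59 on day 1 and 0.23 to 0.29 on the other days. CTSL was 1.09 on day 2 and 0.17 to 0.29 otherwise, ARSB 0.65 on day 2 and 0.004 to 0.11 otherwise, and IDUA 1.99 on day 2 and -0.28 to -0.023 otherwise. The day 2 value of CTSL averages probes at 2.02, 1.29 and -0.043. That of ARSB rests on the only probe with a value that day. That of IDUA rests on 1 probe at 4.11, with another at -0.14.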

How the results depend on the processing

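On the mean, 26 of 7713 features and 1 member passed the threshold. These became 3 to 5 and 0 without 1 array, and 1 and 0 with arrays scaled to equal spread. With days 1 and 2 alone, 1 of 6552 features and 0 members passed, and with days 3 and 4 alone 630 of 7588 and 5. Array weights gave 291 of 7713 and 5, and only features with values on all 4 arrays gave 42 of 6427 and 2. Members called were 2 (CTSA and CTSB) with arrays centred on their median and with only probes that have all 4 values. Days 3 and 4 alone and array weights (0.408, 0.45, 3.02 and 1.8 on days 1 to 4) called CTSA, CTSB, CD63, LGMN and LIPA. The weights were highest for days 3 and 4, so these settings are not separate checks. CTSA passed under 7 of 13 alternatives (means 0.83 to 0.91) and CTSB under 5 of 13 (0.49 to 0.79). No slope passed under any alternative run. The membrane and pump median of 0.34 was 0.489 with 1 probe per gene (that missing the fewest values) and 0.596 with only probes that have all 4 values. Of 283 alternative values of member means 30 reversed, and of 189 slopes 23, and the cause was not tested.

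Means reversed with days 1 and 2 alone for TPP1 (0.18), ASAH1 (-0.0035), GM2A (-0.19), GLA (0.13), HEXA (-0.32) and SCARB2 (0.17), with days 3 and 4 alone for IFI30 (-0.12), SGSH (-0.00675) and IDUA (-0.22), with centring for TPP1 (0.0186), GLA (0.00462) and SCARB2 (0.0237), and with array weights for IFI30 (-0.0446) and IDUA (-0.0433). With 1 probe per gene, and with only complete probes, IDS was 0.19 and IDUA -0.2. Without 1 array, means ran from -0.18 to 0.008 for CTSS, -0.0893 to 0.078 for TPP1, -0.0813 to 0.16 for GM2A, -0.13 to 0.0522 for GLA, -0.12 to 0.2 for HEXA, -0.15 to 0.6 for IDUA and -0.13 to 0.17 for SCARB2.

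Slopes reversed with scaling for CTSB (0.13), MAN2B1 (-0.0195) and CD63 (0.0787), with centring for CTSA (-0.00245) and MAN2B1 (-0.0159), with array weights for CTSL (0.000132) and MAN2B1 (-8.17e-05), and with 1 probe per gene for CTSB (0.0105), CTSL (0.15), IDS (-0.051, also with complete probes) and ATP6V0B (0.0043). Without 1 array, slopes ran from -0.015 to 0.0199 for CTSB, -0.42 to 0.0583 for CTSL, -0.23 to 0.2 for CTSS, -0.0206 to 0.15 for MAN2B1, -0.31 to 0.054 for ARSB, -0.14 to 0.28 for IDS and -0.22 to 0.23 for CD63. The ratio on each array already sets induced against uninduced RNA, and no further pairing was made. Each day has 1 array. Signal over background was not available in the ratios used, so the part of dim spots was not tested.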
